A study of Mus musculus with 24 samples.

Results

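Accessible chromatin of unwounded epidermal stem cells of the mouse was compared between day 80 and day 0. ATAC-seq, the assay used, lets a transposase cut DNA that is not packed away, and a peak marks a place where cuts gather. The members were all regions obtained by merging the deposited peaks of the day 80 and day 0 lists, and each region was classed by an overlap of at least 1 bp as held by the day 80 list alone, by the day 0 list alone or by both. This gave 36925 regions, of 63188 when the peaks of all 8 lists of the series were merged. The pair rests on 7 of the 24 samples of the study, 3 at day 80 and 4 at day 0. The study followed stem cells of mouse skin before wounding and as wounds healed, and the other 6 lists hold hair follicle stem cells of day 0 and cells from partial-thickness and full-thickness wounds.

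The day 80 epidermal cells and the day 0 epidermal cells came from unwounded skin of mice of a CD1 x C57BL/6J cross that carried Krt19-CreER and R26-YFP, per the labels. Krt19-CreER drives a recombinase, active with tamoxifen, from the promoter of a keratin gene, and R26-YFP marks the cells in which it acted and their progeny. Both groups share these alleles, and the labels name no other treatment. The sources used here state neither the sort gates nor the ages of the mice, so the day is that of the study's calendar. Each group has 1 deposited list for all of its samples. A difference between lists has no replicate error and no test, and day and any batch that goes with it cannot be told apart. The peak names in the day 0 list carry a control tag of day 7, which could not be settled, and the list is called by the day it was deposited under.

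The basal layer of the epidermis rests on a basement membrane, to which hemidesmosomes fasten the keratin filaments of its cells through integrins, laminin and collagen XVII. Basal cells divide, leave the layer and differentiate upward into the cornified barrier, and the transcription factor p63, encoded by Trp63, is needed for a stratified epithelium to form and be kept. ATAC-seq marks promoters and distal elements such as enhancers, and the presence of a region says that DNA was open enough to be called, not that a gene was transcribed.

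The 7 proximal promoters shown next lay in a region of 1 list alone, and the results return to each of them. In each the 250 bases before a start site are printed 5′ to 3′ along the gene's strand, from RefSeq, build GRCm38.p6 (mm10). Capitals mark matches on either strand to 10 motifs. These were TGANTCA for AP-1 factors, CCAAT for the box of that name, TATAAA for the TATA box, GGGCGG for SP and KLF factors, CCGGAA for ETS factors, TGACGTCA for the cyclic AMP response element, GATAAG for GATA factors, GGAATG for TEAD factors, TGTGGT for RUNX factors and CANNTG for the E-box. Matches of different motifs may overlap, and a match is a run of letters, not a site. The first 5 promoters lay in a region of the day 80 list alone, and the last 2 in a region of the day 0 list alone.
Krt5 promoter, chr15:101712906-101713155, minus strand: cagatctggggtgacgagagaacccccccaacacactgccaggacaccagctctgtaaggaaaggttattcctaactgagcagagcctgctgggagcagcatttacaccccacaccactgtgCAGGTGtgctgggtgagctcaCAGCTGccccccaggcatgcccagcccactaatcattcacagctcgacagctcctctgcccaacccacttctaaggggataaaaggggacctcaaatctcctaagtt
Col17a1 promoter, chr19:47692043-47692292, minus strand: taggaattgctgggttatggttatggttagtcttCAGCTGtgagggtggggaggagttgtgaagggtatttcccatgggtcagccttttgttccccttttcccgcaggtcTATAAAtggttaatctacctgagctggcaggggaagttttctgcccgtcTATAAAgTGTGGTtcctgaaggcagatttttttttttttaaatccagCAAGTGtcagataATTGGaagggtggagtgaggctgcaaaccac
Cldn1 promoter, chr16:26371840-26372089, minus strand: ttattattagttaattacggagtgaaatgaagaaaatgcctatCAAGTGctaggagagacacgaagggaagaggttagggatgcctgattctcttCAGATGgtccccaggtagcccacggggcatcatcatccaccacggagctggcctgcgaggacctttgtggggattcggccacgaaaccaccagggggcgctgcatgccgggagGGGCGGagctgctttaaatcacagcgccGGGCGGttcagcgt
Per1 promoter, chr11:69098699-69098948, plus strand: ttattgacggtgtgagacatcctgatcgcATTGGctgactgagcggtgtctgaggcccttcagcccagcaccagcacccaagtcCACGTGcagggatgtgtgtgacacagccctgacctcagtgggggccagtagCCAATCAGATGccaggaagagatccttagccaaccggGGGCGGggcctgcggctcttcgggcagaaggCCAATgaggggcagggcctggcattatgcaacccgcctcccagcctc
Trmt10c promoter, chr16:56037787-56038036, minus strand: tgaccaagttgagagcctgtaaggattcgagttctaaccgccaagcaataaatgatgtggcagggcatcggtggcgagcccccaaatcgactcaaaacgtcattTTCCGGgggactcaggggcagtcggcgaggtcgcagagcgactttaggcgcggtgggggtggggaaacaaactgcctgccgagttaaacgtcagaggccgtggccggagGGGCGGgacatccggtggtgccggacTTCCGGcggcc
Il33 promoter, chr19:29924863-29925112, plus strand: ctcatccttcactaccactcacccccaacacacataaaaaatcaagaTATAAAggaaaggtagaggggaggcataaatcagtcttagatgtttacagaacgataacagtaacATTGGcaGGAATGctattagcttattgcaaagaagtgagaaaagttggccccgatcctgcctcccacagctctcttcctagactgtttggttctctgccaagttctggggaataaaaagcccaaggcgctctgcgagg
Sbsn promoter, chr7:30751221-30751470, plus strand: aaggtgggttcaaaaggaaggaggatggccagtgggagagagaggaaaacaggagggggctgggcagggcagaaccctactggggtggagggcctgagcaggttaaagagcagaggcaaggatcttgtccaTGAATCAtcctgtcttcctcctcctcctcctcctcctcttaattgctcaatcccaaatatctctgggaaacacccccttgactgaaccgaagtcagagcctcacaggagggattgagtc
The Krt5 and Col17a1 promoters belong to genes of the basal layer, a keratin and the hemidesmosomal collagen XVII. Cldn1 encodes a claudin of tight junctions, Per1 a repressor of the circadian clock and Trmt10c a subunit of the mitochondrial enzyme that trims tRNA. Il33 encodes an alarm cytokine of barrier tissues, and Sbsn encodes suprabasin, a protein of the differentiating layers. None of the 10 motifs was common to the 5 promoters of the day 80 list alone: the Krt5 window held 2 E-boxes and no other motif, and the Trmt10c window held 2 ETS matches, 1 SP and KLF match and no E-box. The Per1 window held 3 CCAAT boxes, 2 E-boxes and 1 SP and KLF match. Of the day 0 examples, Sbsn held 1 AP-1 match and no other motif.

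The day 80 list held 32236 peaks and the day 0 list 30974 peaks, with median widths of 641 bp and 737 bp. Most regions were common to the pair. The day 80 list alone held 6131 regions (16.6%, exact Clopper-Pearson 95% interval 16.2 to 17.0%), the day 0 list alone held 4845 (13.1%, 12.8 to 13.5%), and both held 25949 (70.3%, 69.8 to 70.7%). All intervals given here cover counting error only. Regions of 1 list alone were narrow, with a median of 453 bp in the day 80 list and 465 bp in the day 0 list, against 871 bp for regions of both. A protein-coding gene lay within 50 kb of 84.4% of the day 80 alone regions, 81.1% of the day 0 alone regions and 86.8% of the regions of both lists. Regions inside a gene made up 56.5%, 52.5% and 65.1% of these classes in the same order. Exons, introns and UTRs were not analysed here.

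The regions that separate day 80 from day 0 were weak ones. The deposited score of a peak, which ranks it within its own list, put the median day 80 alone region at the 16.8th percentile of the day 80 list and the median day 0 alone region at the 17.1st percentile of the day 0 list. Regions of both lists had a median percentile of 59.3 by their day 80 peak and 57.4 by their day 0 peak. The authors' fold enrichment over local background had a median of 6.098 in day 80 alone regions and 6.305 in day 0 alone regions, against 8.428 and 8.174 for the regions of both lists in the day 80 and day 0 lists. In the weakest decile 60.2% of the day 80 regions were absent at day 0, and 48.8% of the day 0 regions were absent at day 80. In the strongest decile these shares were 0.031%, or 1 region, and 0.0968%, or 3 regions. Only 356 of the day 80 alone regions (5.81%) and 384 of the day 0 alone regions (7.93%) lay in the upper 50% of their list by score.

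**Figure D1:**
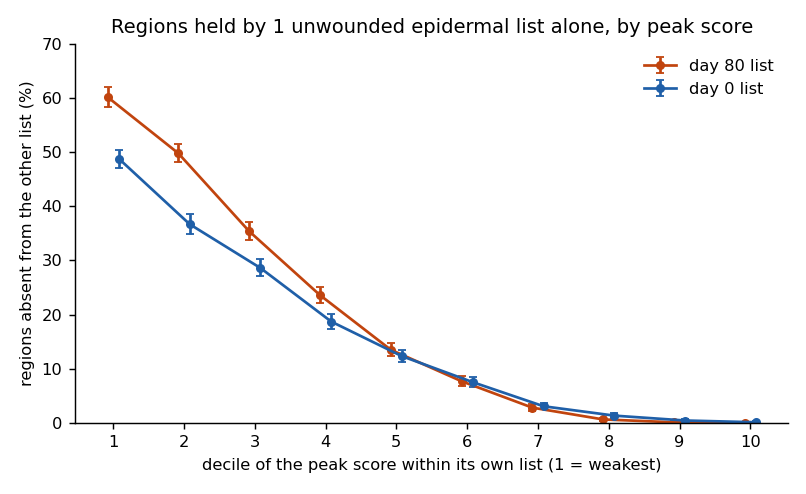
Share of the regions of each list that the other list of the pair lacked (vertical axis, percent) by decile of the peak score within the list (horizontal axis, 1 the weakest), with exact 95% intervals that cover counting error only. Both curves fall to near 0, from 60.2% for day 80 and 48.8% for day 0, and the day 80 curve lies higher in the weakest 6 deciles.

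The thresholds of the lists differed, which bears on how many weak regions each holds. The lowest −log10 p kept by the authors was 7.864 at day 80 and 13.52 at day 0. The strongest peak lay under the day 0 threshold in 4612 of the day 80 alone regions (75.2%), and the day 80 peak did so in 19.6% of the regions of both lists. When 13.52 was applied to both lists, 22430 day 80 peaks and 30974 day 0 peaks were left, and 1519 regions were of the day 80 list alone against 9937 of the day 0 list alone. With both lists at 30974 peaks these were 5380 and 5335. The cut at 13.52 took peaks from the day 80 list only. Common regions whose day 80 peak lay under it, 5076 as deposited, were then counted as day 0 alone. The direction of the whole difference turned with the threshold. However, 13.52 is not a like cut in the 2 lists. The median fold enrichment of all peaks was 7.788 at day 80 and 7.707 at day 0. Their median −log10 p was 18.87 and 29.87, and that of the alone regions was 10.64 and 17.37. A like enrichment thus had a lower −log10 p at day 80. Values at 13.52 show how a result depends on a cut that is harder on the day 80 list. Groups of genes are set beside the share over all genes under the deposited thresholds, and some groups also at 13.52. Read counts were not used here, so depth is unknown.

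The alone regions of each day differed in the company they kept among the other 6 lists. Of the day 80 alone regions 50.4% (49.2 to 51.7%) were in the list of the healed partial-thickness wound of day 80, against 47.0% (45.6 to 48.4%) of the day 0 alone regions. Every other wound list held a lower share of the day 80 alone regions than of the day 0 alone regions. The shares were 37.8% and 48.8% in the partial-thickness wound of day 3 and 40.0% and 51.0% in that of day 7. In the full-thickness wound they were 41.0% and 47.6% at day 7, and 41.9% and 49.2% at day 80. The hair follicle list of day 0 held 31.7% (30.6 to 32.9%) of the day 80 alone regions and 25.8% (24.6 to 27.1%) of the day 0 alone regions. With lists of equal length and with 13.52 applied to both lists each of these orders was the same. When a peak had to cover 50% of a region, the order turned for the day 80 partial-thickness list, at 53.1% of the day 80 alone and 55.5% of the day 0 alone regions, and the hair follicle shares came to 33.4% and 32.6%. The full-thickness lists come from mice with Sox9-CreER in place of Krt19-CreER.

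**Figure D2:**
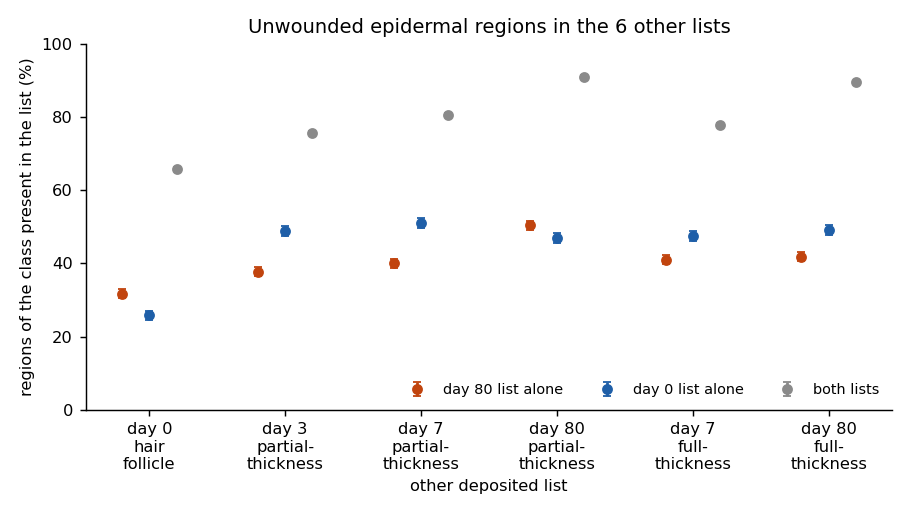
Share of the day 80 alone, day 0 alone and common regions (vertical axis, percent) that were present in each of the 6 other lists (horizontal axis), with exact 95% intervals that cover counting error only. Common regions lie between 65.9% and 91.0%, and the day 80 alone share is the higher of the alone shares for hair follicle cells and for the day 80 partial-thickness wound.

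A region of 1 list alone need not be one that other lists lack. All 6 other lists held 10.0% of the day 80 alone regions and 8.07% of the day 0 alone regions, so that the day 0 list in the first case and the day 80 list in the second was the only one of 8 without a peak there. None of the 6 held 22.6% of the day 80 alone regions and 16.8% of the day 0 alone regions, against 1.97% of the common regions. A healed wound list and no early wound list held 21.0% of the day 80 alone regions and 17.3% of the day 0 alone regions. The reverse, an early wound list and no healed one, held 9.77% and 14.6%. Among the stronger alone regions, those in the upper 50% by score, 76.7% at day 80 and 74.7% at day 0 were in the day 80 partial-thickness list, and 46.3% and 34.1% were in the hair follicle list.

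The 2 classes lay in different neighbourhoods. A day 80 alone region had a median of 11 protein-coding genes within 500 kb, a day 0 alone region had 7 and a common region had 9. The medians were 11 and 7 with lists of equal length, and 12 and 8 with 13.52 applied to both lists. The gene assigned to a day 80 alone region spanned a median of 49.38 kb, against 67.98 kb for a day 0 alone region. By chromosome the ratio of day 80 alone to day 0 alone regions was highest on chromosome 7, with 424 and 240 regions (ratio 1.767), followed by chromosome 4, with 423 and 252. It was lowest on chromosome 19, with 166 and 173 regions (ratio 0.9595), although that chromosome has 11.5 genes per Mb against 14.0 on chromosome 7.

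Windows of 1 Mb showed where such regions gathered under the deposited thresholds. They were not counted at the other thresholds, at which the whole split changed. Of 2199 windows with a region, 204 held at least 6 more day 80 alone than day 0 alone regions and 39 held at least 6 more of the day 0 alone kind. The window from 133000001 to 134000000 on chromosome 4, around the chromatin remodelling gene Arid1a and the actin regulator Wasf2, held 26 day 80 alone and 2 day 0 alone regions. Windows on chromosome 12 (79000001 to 80000000, 22 and 2 regions) and chromosome 16 (25000001 to 26000000, 21 and 1) contain Rad51b and Trp63. In the other direction the window from 21000001 to 22000000 on chromosome 19, at Gda and Cemip2, held 1 day 80 alone and 13 day 0 alone regions. The window from 17000001 to 18000000 on chromosome 14 held 0 and 10, of which 4 were assigned to the thyroid hormone receptor gene Thrb and 2 to the retinoic acid receptor gene Rarb. The window from 112000001 to 113000000 on chromosome 11, which holds the hair follicle regulator Sox9 and the gene desert beside it, had 0 and 9.

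Of 21887 protein-coding genes in the annotation, 12914 had a region of the pair. More day 80 alone than day 0 alone regions were found at 22.9% of these genes, and the reverse at 17.3%. At least 4 day 80 alone and 0 day 0 alone regions were found at 58 genes, and at least 4 day 0 alone and 0 day 80 alone regions at 33. The median gene had 1 region, so a large difference needs a gene with many. The genes with the largest differences, chosen by rule from these counts, are given as a description. Long genes gather regions, and several of those named are long.

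Rad51b, a paralogue of the recombinase that repairs DNA breaks, had the largest difference: 27 regions at day 80 and 11 at day 0. All 16 that differed were day 80 alone, over a gene of 551.0 kb (chromosome 12, 79297282 to 79848260), with score percentiles from 1.99 to 73.7. With 13.52 applied to both lists 8 day 80 alone and 0 day 0 alone regions were left. Rora, a nuclear receptor of the clock and of lipid metabolism, had 23 regions at day 80 and 12 at day 0. Its alone regions, 13 and 2, came to 3 and 3 with 13.52 applied to both lists, so that its difference rests on regions under that threshold. Lpp, a zyxin family protein of focal adhesions, had 15 and 5 regions, and Prkch, a protein kinase C of differentiating keratinocytes, had 20 and 12. Both of these also lost their difference at 13.52, with 3 and 3 alone regions for Lpp and 2 and 2 for Prkch.

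Further genes with more regions at day 80 were Rere (11 and 4), a nuclear corepressor, Maml3 (16 and 9), a coactivator of Notch, Ece1 (10 and 4), the enzyme that makes endothelin, and Cxcl14 (11 and 5), a chemokine of resting epidermis. Cxcl14 is short, at 8.169 kb, and its 6 day 80 alone regions lay outside it, between 8594 and 45754 bp away. The healed partial-thickness list held 5 of them. Il17b, a cytokine of the IL-17 family, and Megf6 had 4 regions each at day 80 and 0 at day 0. At 13.52 Cxcl14 kept 3 day 80 alone regions and gained 1 day 0 alone region, Il17b had 2 and 0, and Megf6 had 1 and 0.

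On the day 0 side Cdk14, a cyclin-dependent kinase that acts in Wnt signalling, had 4 regions at day 80 and 12 at day 0. None of its 8 day 0 alone regions was in the day 80 partial-thickness or day 7 full-thickness list, and 4 were in the day 80 full-thickness list. Prune2 had 2 and 8 regions, and 5 of its 6 day 0 alone regions were in the day 3 partial-thickness list. Arhgap24, a GTPase activator for Rac, had 12 and 18, and Macrod2, a hydrolase of ADP-ribose, had 33 and 39 over 1998.0 kb. The cadherin gene Cdh13 and the ubiquitin ligase gene Hecw2 had 2 and 7 regions each. Nrip1, a corepressor of nuclear receptors, had 7 and 12, and 4 of its 5 day 0 alone regions were in no other list. Aox3, an aldehyde oxidase, had 0 and 4. All 4 of its regions were in each early wound list, and 3 were in each healed wound list.

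**Figure D3:**
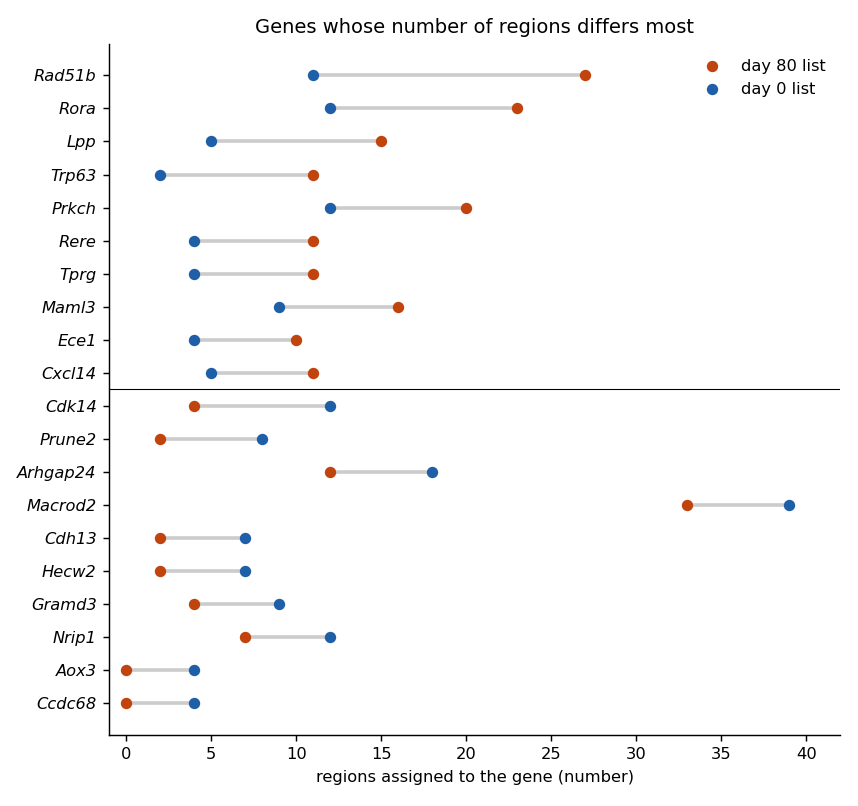
Regions assigned to each gene (horizontal axis, number) in the day 80 list and the day 0 list, for the 10 genes with the largest excess of day 80 alone regions (above the line) and the 10 with the largest excess of day 0 alone regions (below it). Rad51b has 27 and 11 regions and Cdk14 has 4 and 12; grey bars join the values of a gene.

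Trp63 on chromosome 16 (25683763 to 25892088) combined a large difference with a gene at the centre of epidermal identity. The day 80 list held 11 regions there and the day 0 list held 2. Of the 9 day 80 alone regions 8 lay inside the gene and 1 lay 920 bp beyond its end. The strongest were at chr16:25758194-25758564 (score percentile 71.8, fold enrichment 12.27) and chr16:25725404-25725947 (62.3 and 10.96), and neither was in the hair follicle list. The weakest, at chr16:25842975-25843441, stood at 0.304. All 9 were in the day 80 partial-thickness list, 8 in the day 7 full-thickness list, 6 in each of the day 3 and day 7 partial-thickness lists, 4 in the day 80 full-thickness list and 4 in the hair follicle list. With 13.52 applied to both lists 5 day 80 alone regions were left, and 1 common region counted as day 0 alone because its day 80 peak was cut. With lists of equal length the alone regions were 8 and 0.

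The surroundings of Trp63 also held more day 80 alone regions under the deposited thresholds. Within 1500 kb on either side, a window chosen after the values were seen, 38 regions were day 80 alone, 5 were day 0 alone and 45 were common. The neighbours Lpp and Tprg on one side and Cldn1 on the other each had more regions at day 80, with 15 and 5, 11 and 4, and 7 and 3. With lists of equal length the window held 35 day 80 alone and 5 day 0 alone regions, but with 13.52 applied to both lists it held 13 of each. Tprg then had 1 and 1 alone regions and Lpp 3 and 3, while Cldn1 had 3 and 0. Of the 38 day 80 alone regions 22 were in the day 80 partial-thickness list, 21 in the day 7 full-thickness list, 13 in the day 80 full-thickness list and 17 in that of the hair follicle. No other list held 7 of them.

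**Figure D4:**
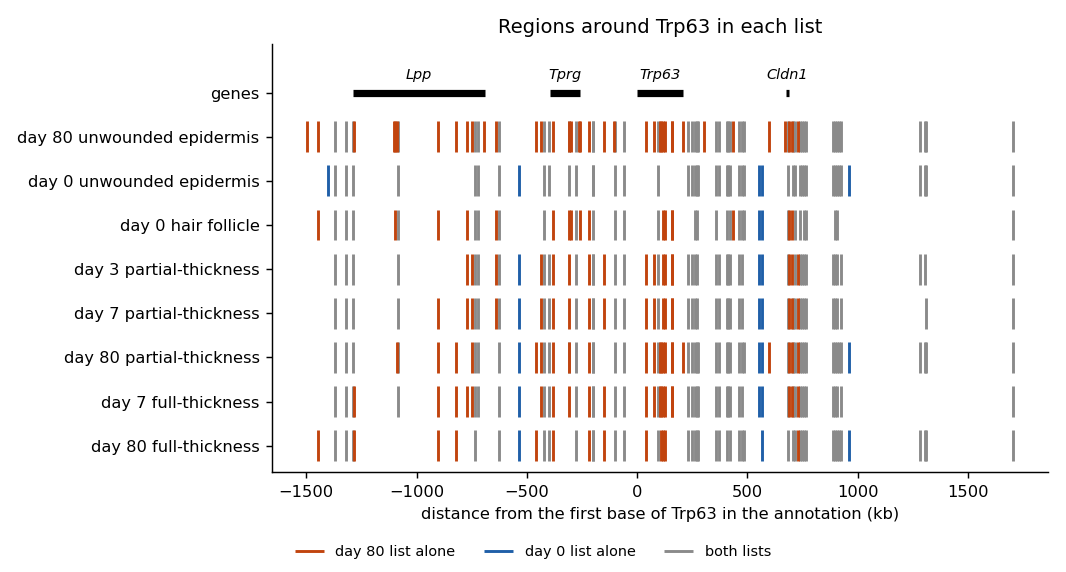
Regions of the pair (vertical bars) by distance from the first base of Trp63 in the annotation (horizontal axis, kb) in the 8 lists, coloured by whether the day 80 list alone, the day 0 list alone or both held them. Red bars, the 38 day 80 alone regions, recur in the lower rows, and 5 blue bars mark the day 0 alone regions; only regions of the pair are drawn.

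Under the deposited thresholds genes of the basal layer as a group had a high day 80 alone share. A region was day 80 alone in 16.4% and day 0 alone in 12.4% of the 31635 regions assigned to a gene, the shares against which each list is read. For basal keratinocyte and hemidesmosome genes these were 30.2% (21.3 to 40.4%) and 7.29% (2.98 to 14.4%), or 29 and 7 of 96 regions. Of 19 such genes with a region 8 had more at day 80, 4 had more at day 0 and 7 were equal. Without Trp63 the shares were 23.5% and 8.24%. With 13.52 applied to both lists more of the list's regions were day 0 alone than day 80 alone, 29.7% against 9.46%, where all genes stood at 30.0% and 4.54%. At 13.52 Trp63 gave 5 of the list's 7 day 80 alone regions, and without it the shares were 2.99% and 31.3%, so the day 80 share was then under the background. With lists of equal length the whole list stood at 28.7% and 8.51%, against 14.6% and 14.1% over all genes, and without Trp63 at 22.6% and 9.52%.

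Within that group the collagen XVII gene Col17a1, which holds basal cells to the basement membrane, had 5 regions at day 80 and 1 at day 0. Its 4 day 80 alone regions included the start site (chr19:47691822-47692273, the promoter printed above), where the day 80 peak was among the weakest of its list at the 0.0543rd percentile. The strongest of the 4, at chr19:47710327-47710888 and 18285 bp from the gene, stood at 54.45 and was in all 6 other lists. Krt5, whose product pairs with keratin 14 in basal cells, had 2 regions at day 80 and 0 at day 0. The region over its start site (chr15:101712491-101713470) had a fold enrichment of 3.819 and was in all 6 other lists. The day 0 epidermal list, as deposited, was thus the only one of the 8 without it. With 13.52 applied to both lists Krt5 had 0 day 80 alone and 0 day 0 alone regions. The Krt5 difference therefore rests on regions under that threshold. Lama3, a chain of laminin-332, had 8 and 5 regions. P-cadherin, encoded by Cdh3, had 9 and 6, and Plec, which links keratin to hemidesmosomes, had 6 and 4. Krt14 and Itga6 had equal numbers, 2 and 6 in each list. Dst, a plakin of hemidesmosomes, had 10 and 11, and Itgb1, an integrin subunit, had 4 and 5.

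Factors of epidermal fate had few day 0 alone regions. Of their 85 regions 20.0% (12.1 to 30.1%) were day 80 alone and 3.53% (0.734 to 9.97%) were day 0 alone, and 9 genes had more regions at day 80, 0 had more at day 0 and 8 were equal. At 13.52 these shares were 6.76% and 14.9%, against 4.54% and 30.0% over all genes. Hopx, a homeodomain protein, had 7 and 4 regions, Grhl3, which drives barrier formation, had 7 and 5, and Tfap2c had 9 and 7. Gata3 had 8 and 7, and Klf5 had 2 in each list. The suprabasal and terminal differentiation list had 22.4% day 80 alone and 12.1% day 0 alone regions, with Tgm3, a transglutaminase of the cornified envelope, at 9 and 7 and Krt10 at 2 and 1. At 13.52 this list stood at 6.25% day 80 alone and 27.1% day 0 alone. The day 0 side held the promoter of Sbsn.

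**Figure D5:**
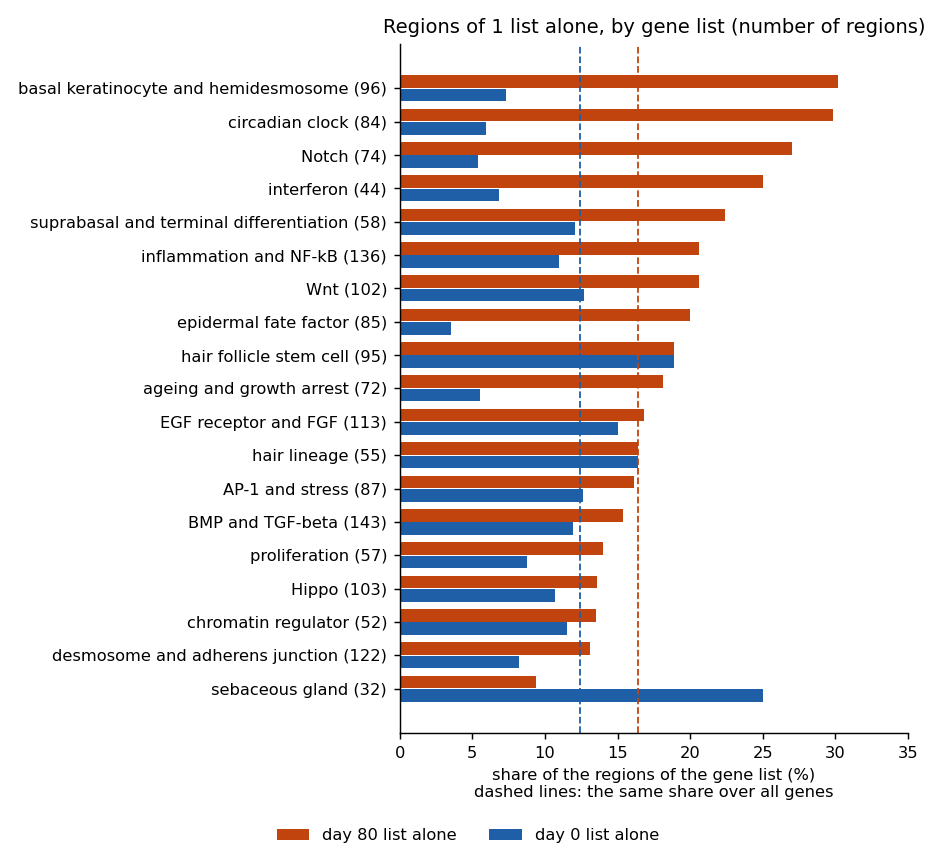
Share of the regions of each gene list (horizontal axis, percent) that were held by the day 80 list alone or the day 0 list alone, for the 19 gene lists with at least 30 regions; dashed lines give the same shares over all genes, 16.4% and 12.4%. Basal keratinocyte, clock and Notch genes extend furthest on the day 80 side, and sebaceous gland genes have 25.0% day 0 alone regions.

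Clock and Notch genes had shares like those of the basal list. Circadian clock genes had 29.8% (20.3 to 40.7%) day 80 alone and 5.95% (1.96 to 13.3%) day 0 alone regions. Rora gave 13 of the 25 day 80 alone regions, and without it the shares were 20.3% and 5.08%. Npas2, a partner of the clock activator BMAL1, had 8 and 4 regions, and Arntl2 had 1 and 2. The promoters of Per1, Nr1d1 and Tef, all transcription regulators whose level cycles, lay in day 80 alone regions. A promoter of Rora lay in a day 0 alone region, at score percentile 4.0. At 13.52 Per1 had 0 day 80 alone and 0 day 0 alone regions. The sources used here do not state the hour of sampling, and its part in these regions was not tested. Notch genes had 27.0% (17.4 to 38.6%) and 5.41% (1.49 to 13.3%), led by the coactivators Maml3 and Maml2, the ligand gene Dll1 (6 and 3 regions) and the target Hes1 (6 and 4). Numb, an inhibitor of Notch, had 1 and 3. At 13.52 Notch genes stood at 1.82% day 80 alone and 20.0% day 0 alone, against 4.54% and 30.0% over all genes, so its day 80 share was then under the background. Clock genes at 13.52 stood at 9.09% and 24.2%. Rora gave 3 of their 6 day 80 alone regions there, and without it the shares were 5.88% and 25.5%.

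Hair follicle and sebaceous genes had day 0 alone shares above that of all genes under the deposited thresholds. The hair follicle stem cell list had 18 day 80 alone and 18 day 0 alone of 95 regions. That was 18.9% each (11.6 to 28.3%), against 16.4% and 12.4% over all genes. Both shares were above the background, and the interval holds both background values. Lrig1, a feedback inhibitor of EGF receptors that marks junctional cells, had 12 regions at day 80 and 7 at day 0, and Lgr6, a receptor of R-spondin, had 4 and 1. Lgr5, the receptor of bulge stem cells, had 0 and 1, Foxc1, a factor of bulge quiescence, had 0 and 1, Tcf7l1 had 5 and 7, and Sox9 had 1 and 2. At 13.52 the list stood at 4.94% day 80 alone and 45.7% day 0 alone, against 4.54% and 30.0% over all genes. By nearest start site it stood at 20.0% and 12.7%, against 16.1% and 11.1%. Sebaceous gland genes had 9.38% (1.98 to 25.0%) day 80 alone and 25.0% (11.5 to 43.4%) day 0 alone of 32 regions. Both intervals hold the background. The excess at day 0 was absent in the upper 50% by score, with 3 regions of each kind, and by nearest start site, with 2 of each. At 13.52 the sebaceous list stood at 0.0% day 80 alone and 55.2% day 0 alone. The fatty acid binding protein gene Fabp5 had 2 and 4, Mgst1 had 0 and 2, and Elovl3, an elongase of sebum lipids, had 0 and 1.

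Stress and immune genes included members on both sides. AP-1 and stress genes, at 16.1% day 80 alone and 12.6% day 0 alone, were close to the background, but members differed. Fos had 5 regions at day 80 and 9 at day 0, a difference of 4 day 0 alone regions. In the upper 50% of each list by score its direction turned, with 2 day 80 alone and 0 day 0 alone regions. Jun had 5 and 3, Fosb 4 and 2, and Dusp1, a phosphatase that switches off MAP kinases, 5 and 2. Inflammation and NF-kB genes had 20.6% (14.1 to 28.4%) and 11% (6.31 to 17.5%) of 136 regions. The decoy receptor gene Il1r2 had 8 and 5, Casp1, which activates interleukin-1, had 2 and 0, and Il33 had 5 and 7 with its promoter day 0 alone. Interferon genes had 25.0% (13.2 to 40.3%) and 6.82% (1.43 to 18.7%) of 44 regions, with the factor genes Irf1 at 6 and 3 and Irf2 at 7 and 4. Ifit1 had 1 and 0 and its neighbour in the family Ifit2 had 0 and 2.

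The remaining lists cover signalling, the cell cycle, chromatin and junctions. Wnt genes had 20.6% day 80 alone and 12.7% day 0 alone regions, with more at day 80 for the ligands Wnt7b (8 and 5) and Wnt3a (4 and 1) and more at day 0 for Wnt5a (4 and 6) and the receptor gene Fzd10 (8 and 10). At 13.52 Wnt genes stood at 3.57% and 34.5%, against 4.54% and 30.0% over all genes. Their day 80 share was then under the background. Under the deposited thresholds BMP and TGF-beta genes had 15.4% and 11.9%. The receptor gene Acvr1 had 2 and 5 regions and the inhibitor gene Nog 0 and 2, while Smad6, an inhibitor inside the cell, had 3 and 1. EGF receptor and FGF genes had 16.8% and 15.0%, Hippo genes 13.6% and 10.7%, proliferation genes 14.0% and 8.77%, and chromatin regulators 13.5% and 11.5%. Desmosome and adherens junction genes had 13.1% and 8.2%. That list also takes in the tight junction gene Cldn1, at 7 and 3 regions, and without Cldn1 its shares were 10.4% and 8.7%. Genes of ageing and growth arrest had 18.1% (9.98 to 28.9%) and 5.56% (1.53 to 13.6%), with the cell cycle inhibitor Cdkn1a at 3 and 1 and the insulin-like growth factor receptor Igf1r at 13 and 10. At 13.52 genes of ageing and growth arrest stood at 3.28% and 29.5%, so their day 80 share was then also under the background. Under the deposited thresholds housekeeping genes had 24.0% (9.36 to 45.1%) and 4.0% (0.101 to 20.4%) of 25 regions, and both intervals hold the background. Ywhaz, a 14-3-3 protein gene, gave 3 of their 6 day 80 alone regions, and without it the shares were 16.7% and 5.56%. At 13.52 they had 0 day 80 alone and 3 day 0 alone regions.

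Under the deposited thresholds marker genes of epidermis and of other cells of the skin were present unevenly. All 8 epidermal markers had a region at day 80, 37 in all, and 7 of 8 had one at day 0, 21 in all. Trp63 gave 11 and 2 of these regions and Col17a1 5 and 1, while Krt14, Itga6, Itgb4 and Klf5 had equal numbers. Of 8 hair follicle markers 6 had a region at day 80 (20 regions) and all 8 at day 0 (25). Of 5 T cell markers Cd3e and Lck had 1 region each at day 80 and none of the 5 had one at day 0. Of the 5 Langerhans cell and macrophage markers only Ptprc had a region, 2 at day 80 and 1 at day 0, and Cd207, Csf1r, Spi1 and Ciita had none in either list. The class II gene H2-Ab1 had 2 and 0 regions. Melanocyte markers had 7 regions in each list, fibroblast markers 4 in each, endothelial markers 6 and 5, Merkel cell markers 1 and 1 and muscle markers 1 and 0. With 13.52 applied to both lists Trp63 had 5 day 80 alone and 1 day 0 alone regions, and Col17a1 had 1 and 0. Itga6 then had 0 and 3, Krt14 0 and 2 and Gata3 0 and 1. These day 0 alone regions were common ones under the deposited thresholds, and the cut removed their day 80 peaks. Krt5, Klf5, Cd3e and Lck had 0 of each kind at 13.52. A small share of other cells and a low level of accessibility in all cells cannot be told apart in lists of this kind, and their part in the differences was not tested.

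Promoter windows that overlapped a region lay mostly in common ones. RefSeq gave 21263 start windows of 300 bases, 250 before to 50 after a start, for 17492 genes, and 9783 windows overlapped a region. Of these 681 (6.96%) lay in a day 80 alone region and 367 (3.75%) in a day 0 alone region, below the 16.6% and 13.1% of all regions. The windows were alike in base composition, with a median of 61.67% G and C in both alone classes and 62.0% in common ones, against 50.67% where no region lay. Median CpG numbers were 20, 19 and 22, against 5 without a region. The SP and KLF letters occurred in 69.3% (65.7 to 72.8%) of day 80 alone windows and 59.9% (54.7 to 65.0%) of day 0 alone windows, against 68.9% of common and 46.2% of all windows. CCAAT occurred in 30.7% (27.2 to 34.3%) and 28.3% (23.8 to 33.2%), against 41.0% of common and 38.2% of all windows. The ETS letters occurred in 25.1% and 21.5%, against 32.2% and 18.7%, and those of AP-1 in 5.73% and 4.36%, against 4.79% and 6.99%.

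Among 402 listed genes with a start window, 30 had a promoter in a day 80 alone region and 12 in a day 0 alone region. Of the 247 listed genes whose window overlapped a region these were 12.1% and 4.86%, against 7.17% and 3.98% over all 8436 such genes. Promoters of basal and junction genes on the day 80 side were those of Krt5, Col17a1, Cd9, Sfn and Cldn1. Apart from Cldn1 these regions were weak, at score percentiles of 25.3 for Krt5, 18.5 for Cd9, 5.53 for Sfn and 0.0543 for Col17a1. Those of growth and signalling genes included the kinase gene Cdk2, Birc5, Ctnnb1, which encodes beta-catenin, Bmpr1a and Lgr6. On the day 0 side were the cytokine and receptor genes Il33, Il1a and Il1r1 and the matrix genes Postn and Ltbp1. The promoter of the integrin gene Itga3, a member of the basal list, was also day 0 alone. Promoters of immune genes lay on both sides. Those of Il6, Casp1 and Ifit1 were in day 80 alone regions, and that of Ifit2 was in a day 0 alone region. The Cldn1 promoter region stood at the 45.6th score percentile and was in 5 of the 6 other lists, all but the day 80 full-thickness one. The Il33 promoter region stood at 8.25 and the Sbsn promoter region at 22.5, and all 6 other lists held the Sbsn region.

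The strongest regions of 1 list alone were few and of mixed kinds. The strongest day 80 alone region covered the Trmt10c start site (chr16:56037464-56038097), with a fold enrichment of 14.46 at the 95.6th percentile, and the day 80 full-thickness list was the only other list with it. The next, at the start of Lsm14b (chr2:180024468-180025472, percentile 82.7), had the same pattern. Regions near Mthfd2l and Lsm4 followed at 82.1 and 81.3, each in 5 of the other lists. The strongest day 0 alone region lay 29655 bp from Bbx (chr16:50462121-50462514), with a fold enrichment of 16.69 at the 92.7th percentile, and all 6 other lists held it. The day 0 alone regions inside Reln, Csn1s2b and Rdh13 stood at 90.8, 89.1 and 88.3 and were in 4, 6 and 6 of the other lists. A region at chr16:8006470-8007191, with no protein-coding gene within 50 kb, stood at 86.9 and was in no other list.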

How the data were processed

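The data are deposited narrowPeak lists, 1 per group. Bowtie, Picard, MACS2 2.1.1.20160309, bedtools 2.29.2 and mm10 are named without role or order, per the submitters' processing notes. The sources used here do not say whether reads or calls of the samples were pooled. For every peak the authors deposited a score, by the layout 10 times its −log10 q, a fold enrichment (a ratio over local background) and a −log10 p. These describe a peak within its own list. The −log10 p was also used across the pair, where the lowest value kept at day 0 was applied to day 80. That is not a like cut in the 2 lists. Peak numbering shows that the authors kept 79.6% of the day 80 calls and 65.1% of the day 0 calls.

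Peaks of the 2 lists were merged where they overlapped, classed by 1 bp of overlap and given the closest protein-coding gene, if within 50 kb (RefSeq, GRCm38.p6), with Python 3.11.15, numpy 2.4.6, pandas 2.3.3, scipy 1.17.1 and matplotlib 3.10.9. The class and assignment steps were tested on simulated data. No test was possible between groups of 1 list each. Shares carry exact Clopper-Pearson 95% intervals. Of the genes in 27 lists 5 symbols were not found. Members and gene lists were chosen with earlier results of these data known. The rule for named genes took the 10 with the largest excess in each direction, those nearest the 10 strongest alone regions of each list, up to 4 members per gene list with the most alone regions, 5 per direction with all regions in 1 list, and 20 fixed genes. Other members of the gene lists, the promoters printed, the 1 Mb windows, the gene density and the Trp63 window were chosen after values were seen.

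Alternatives were another overlap, the upper 50% by score, lists of equal length, a common lowest −log10 p, peaks up to 500 bp apart merged, 150 bp around summits, no sex chromosomes, gene windows of 10 and 100 kb and nearest start sites.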

Additional observations from a re-analysis of the deposited data

How the results depend on the processing

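The split between the lists depended on the threshold. Regions of the day 80 list alone and of the day 0 list alone were 6131 and 4845, with 70.3% common. They were 3449 and 2805 (66.9% common) in the upper 50% of each list by score, and 1519 and 9937 (64.6%) with the same lowest −log10 p in both lists, which shortens the day 80 list only. The common share was 64.8% when a peak had to cover 50% of the region and 64.5% with 150 bp to each side of the summit. The percent of day 80 alone and day 0 alone regions in the day 80 partial-thickness list was 50.4 and 47.0, then 53.1 and 55.5 at 50% cover, 92.7 and 87.7 in the upper 50% by score, 68.9 and 59.5 at the same lowest −log10 p, and 56.8 and 55.8 around summits. With lists of equal length 52.3% of the day 80 alone regions were in it. At 50% cover and by this list the order of the classes was turned. Merging peaks 500 bp apart and leaving out the sex chromosomes moved none of these counts by over 1.5 times.

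The excess of day 80 alone over day 0 alone regions changed sign for 22 of 27 gene lists and 26 named genes at the same lowest −log10 p, where all genes had 1258 and 8311. It became 0 for a further 37 named genes there, for 69 named genes and 4 lists in the upper 50% by score, and for 54 named genes and 2 lists, sebaceous gland among them, by nearest start site. At the same lowest −log10 p it became -33 for BMP and TGF-beta and for EGF receptor and FGF, -26 for Wnt, -25 for Hippo, -24 for desmosome, -22 for inflammation, -16 for ageing, -15 for basal keratinocyte and chromatin regulators, -10 for terminal differentiation, Notch and clock, -9 for AP-1 and proliferation, -7 for fibroblast and Pard3, -6 for epidermal fate, -4 for interferon, Langerhans and T cell, -3 for melanocyte, housekeeping and Lrig1, -2 for Ehf, Tgm3, Bmpr1b, Maml2, Ccn1, Irf2, Nectin1 and Epcam, and -1 for muscle, Iqgap1, Plec, Lama3, Wnt7b, Wnt3, Tgfb2, Fgfr2, Wwtr1, Igf1r, Tet3, Tmem158, Ptprc, Pdgfra, Pecam1, Gata3 and Krt10. In the upper 50% by score it became -2 for Bmpr1b and Maml2, -1 for terminal differentiation, melanocyte, Fgfr2, Wwtr1, Fosb, Dusp1, Epcam, Gata3 and Ivl, 1 for Merkel cell, Arhgap24, Smad2 and Il1a, and 2 for Amotl2, Fos and Myc. At 50% cover it became -3 for chromatin regulators and -1 for Hippo, proliferation and Pard3. With lists of equal length it became -3 for EGF receptor and FGF. In a 10 kb window it became -1 for AP-1 and 1 for Smad2 and Amotl2. By nearest start site it became -1 for chromatin regulators, fibroblast and Pard3 and 2 for Merkel cell.

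No paired analysis was possible because each list joins all samples of its group, and for the same reason no result without 1 of the replicates exists. The comparison of gene density, of the other lists under these settings, of gene lists without their leading gene and of the Trp63 window under other thresholds was chosen after seeing the data.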
